A study of Homo sapiens with 54 samples.

Results

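The human iPSC line 253G1 was compared with the human ESC line H1 in a single medium, in 8 of the 27 cultures of the series (16 of 54 arrays). All 3 cultures labelled 253G1 formed the iPSC group, namely the pre-culture at passage 43 and the cultures grown for 36 days with bFGF or with FGFC, both at passage 52. The ESC group was made of 5 H1 cultures, namely the pre-cultures of 3 numbered experiments at passages 48, 49 and 50 and the cultures grown for 30 days with bFGF or with FGFC, both at passage 58. All 8 cultures were kept without feeder cells on Matrigel in E8, which is Essential 6 medium with TGF-beta 1 at 2 ng/mL and an FGF at 100 ng/mL. FGFC is a chimera of FGF1 and FGF2, and bFGF is FGF2. 253G1 was reprogrammed from dermal fibroblasts with POU5F1, SOX2 and KLF4 and without MYC, and H1 (WA01) was derived from an embryo. There was 1 line on each side, so that iPSC against ESC cannot be told apart from donor, derivation, passage history or slide. The cultures within a group are 1 line at different passages or with different FGFs, so p-values measure only the spread between these cultures.

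Reprogramming returns a somatic cell to a pluripotent state in which the same core transcription factors are used as in ESCs. Pluripotent lines are known to differ from each other where expression is set by stable chromatin marks. Imprinted genes are one such class, since they are read from only the maternal or the paternal copy. Another is the clustered protocadherins on chromosome 5, cell adhesion proteins of neurons, of which each has its own promoter and is switched on in some cells and not in others. Genes of KRAB zinc finger proteins, many of them in runs on chromosome 19, encode repressors of transposable elements and are a further class that is often silenced by DNA methylation in cultured cells.

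RNA was measured with 1-colour Agilent arrays. Each culture was hybridised to 2 arrays, and their mean counted as 1 culture. The level of a probe is given as the log2 signal minus the 75th percentile of its array, so 0 is the level of a probe at that percentile and a difference of 1 is a 2-fold difference. Levels of different probes were not compared. Of the probes, 56.1% to 61.6% were well above background on the 253G1 arrays and 60.1% to 74.5% on the H1 arrays. The arrays of 253G1 lay on 2 slides and those of H1 on 5 others, with 0 slides shared, so slide and line cannot be told apart. Across probes the correlation between cultures was 0.988 to 0.989 within 253G1, 0.977 to 0.992 within H1 and 0.954 to 0.981 between the lines. Probes on chromosomes X and Y were left out, which left 40838 probes, and 19198 named genes by their brightest probe.

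With limma at an adjusted p of 0.05, 6261 of 40838 probes (15.3%) passed. In 253G1 1913 (4.68%) were higher than in H1 and 4348 (10.6%) were lower. Lower calls made up 69.4% of these, but 55.0% after quantile normalization (3001 higher and 3675 lower). The count depended on single cultures, and it was 2149 without the 253G1 FGFC culture, 2392 without the 253G1 bFGF culture, 3078 without the 253G1 pre-culture and 4045 without the third H1 pre-culture. At 2-fold or more 3218 probes (7.88%) passed, 907 (2.22%) higher and 2311 (5.66%) lower, and 1510 of them were dim in both lines, meaning that neither line had the probe well above background on all its arrays. On the means alone, with no test, 4857 probes (11.9%) differed 2-fold, 1890 (4.63%) higher and 2967 (7.27%) lower, but 724 after normexp background correction and 2052 with only probes well above background. Among the 19198 genes 1143 (5.95%) were higher and 1419 (7.39%) lower, and with a 2-fold difference 488 (2.54%) were higher and 656 (3.42%) lower. Of the 13448 genes that were bright, that is well above background on all arrays of at least 1 line, 687 (5.11%) passed with a 2-fold difference, and 298 (2.22%) were 2-fold higher and 389 (2.89%) were 2-fold lower. A gene that is bright in only 1 line enters through the line where it is high. The median share of probes well above background was 58.7% on 253G1 arrays and 67.0% on H1 arrays, so this filter can favour falls. The median log2 difference over all genes was 0.11, against which the medians of gene groups are set.

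**Figure D1:**
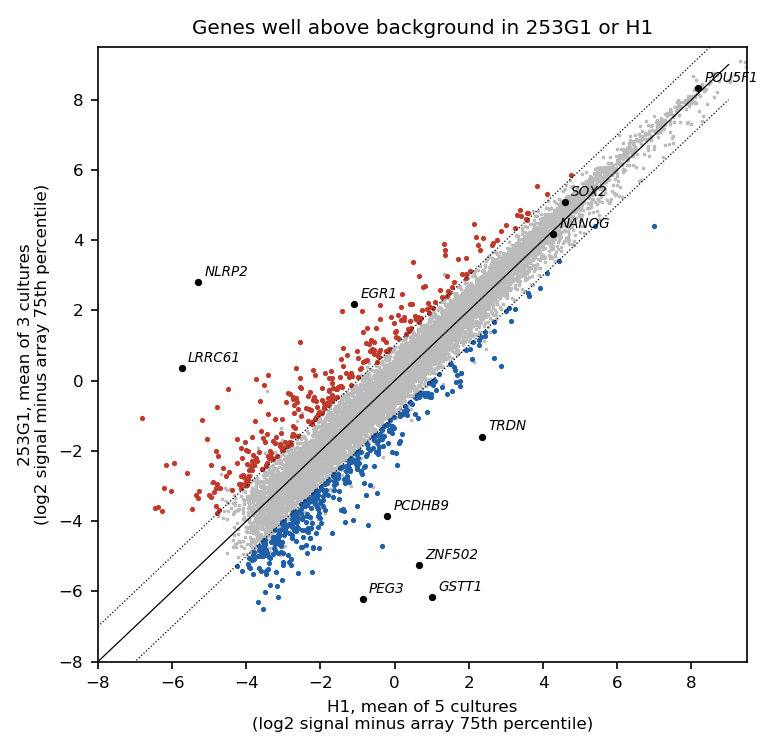
Mean level in H1 (horizontal axis, 5 cultures) against mean level in 253G1 (vertical axis, 3 cultures), both as log2 signal minus the array's 75th percentile, for genes well above background in at least 1 line, 1 point for each gene. Red and blue points are the genes 2-fold higher or lower in 253G1 with an adjusted p under 0.05, dotted lines mark 2-fold, and POU5F1, SOX2 and NANOG lie near the line of equal levels while NLRP2, LRRC61, GSTT1 and PEG3 lie far from it.

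Both lines expressed the genes that define pluripotent cells, and none of POU5F1, SOX2, NANOG, LIN28A, TDGF1 and DNMT3B passed the test between them. POU5F1, the central pluripotency factor, was at 8.37, 8.30 and 8.34 in the 253G1 pre-culture, bFGF and FGFC cultures, and at 8.01, 8.00, 8.11, 8.29 and 8.53 in H1, in the order pre-cultures 1, 2 and 3, bFGF and FGFC, which is the order used throughout. The ranges overlapped, and the difference was 0.15 (SE 0.16, adjusted p = 0.504). NANOG, another core factor, was at 4.29, 4.05 and 4.18 in 253G1 and at 4.04, 4.02, 4.39, 4.53 and 4.39 in H1, and its difference of -0.11 (SE 0.17, adjusted p = 0.661) did not pass the test either. SOX2 lay at 5.01, 5.03 and 5.19 in 253G1 and at 4.32, 4.35, 4.64, 4.74 and 4.86 in H1. All 253G1 cultures were above all H1 cultures for SOX2, while 31.2% of all genes had lines that did not overlap, in one direction or the other. The difference of 0.49 (SE 0.17, adjusted p = 0.0779) did not pass. For SOX2 this call depended on the setting. Its adjusted p was 0.033 after normexp and 0.0275 with slide as a random block on single arrays. It was 0.1 after quantile normalization and 0.144 with the kind of culture as a block. The differences were 0.30 (SE 0.19, adjusted p = 0.258) for LIN28A, an RNA-binding protein that blocks let-7 maturation, 0.15 (SE 0.22, adjusted p = 0.63) for the de novo methyltransferase DNMT3B, and 0.09 (SE 0.19, adjusted p = 0.741) for the Nodal co-receptor TDGF1, listed by its current symbol CRIPTO. A p over the threshold does not show that levels were equal, and these standard errors of 0.16 to 0.22 leave room for differences of that order.

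Of 25 core pluripotency genes, 2 were higher (8.0%, against 5.95% of all genes) and 1 was lower (4.0%, against 7.39%), 22 did not pass, and the median was 0.23. These shares are near those of all genes. FGF2, which human pluripotent cells make as well as need, was at 0.80, 0.87 and 1.21 in 253G1 and at -0.03, 0.18, 0.06, -0.01 and -0.10 in H1, a difference of 0.94 (SE 0.15, adjusted p = 0.00618). No 253G1 culture overlapped an H1 culture. TERT, the catalytic subunit of telomerase, was at 1.33, 1.12 and 1.05 in 253G1 and at 2.39, 2.41, 2.22, 2.38 and 1.99 in H1, all 253G1 cultures being lower, and fell by 1.11 (SE 0.15, adjusted p = 0.00384). NODAL, the ligand that keeps the primed state through SMAD2 and SMAD3, was higher by 2.04 (SE 0.57, adjusted p = 0.0461), with levels of 0.94, 0.20 and 0.69 in 253G1 and -0.55, -0.61, -1.28, -1.46 and -3.27 in H1. Its lowest H1 level was that of the FGFC culture, and NODAL passed in only 3 of the 8 fits that left out 1 culture.

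Of the factors used for reprogramming, KLF4 and MYC did not pass either. KLF4 was at -4.89, -4.14 and -4.25 in 253G1 and at -4.01, -4.65, -4.49, -4.63 and -4.77 in H1, well above background on 3 of 6 and 6 of 10 arrays, with a difference of 0.08 (SE 0.23, adjusted p = 0.814). MYC was at 3.14, 2.99 and 3.15 in 253G1 and at 2.51, 2.31, 2.72, 2.79 and 2.67 in H1, all 253G1 cultures being the higher ones, and its difference of 0.49 (SE 0.15, adjusted p = 0.058) did not pass. The adjusted p of MYC was 0.024 after normexp and 0.0152 with slide as a random block on single arrays. After quantile normalization it was 0.0797, and with the kind of culture as a block 0.137. Of the 11 factors listed, 1 passed, the T-box gene TBX3 at 0.76 (SE 0.21, adjusted p = 0.0424), and it was well above background on 0 of 6 arrays of 253G1 and 1 of 10 of H1. TBX3 passed in only 1 of the 8 fits that left out 1 culture, and its adjusted p was 0.0547 with the kind of culture as a block, 0.295 with slide as a random block and 0.569 after normexp. The array does not separate a transgene from the gene of the cell, and the position of each probe in its transcript was not used here.

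MEG3, the maternally expressed long noncoding RNA of the imprinted DLK1-MEG3 region on chromosome 14, had the largest measured difference among the rises, although after normexp its 5.29 was below the 5.66 of NLRP2. It was at 1.73, 2.23 and 2.88 in 253G1 and at -5.92, -6.80, -6.14, -5.77 and -6.99 in H1. With this probe the 3 iPSC cultures had a clear signal on all 6 arrays, and H1 was not well above background on any of its 10. The difference was 8.60 (SE 0.36, adjusted p = 1.83e-05), which is at least 273-fold when H1 is set to the lowest signal well above background or to its own signal, whichever is higher. MEG3 has 7 probes, of which 6 passed in this direction, while the brightest differed by 0.54 with an adjusted p of 0.0541. The brightest was at 0.57 in H1 and well above background on all 10 H1 arrays. Another, which differed by 7.83, was well above background on 8 of them. DLK1, the paternally expressed neighbour, differed by -0.20 with an adjusted p of 0.38.

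NLRP2, an NLR family gene on chromosome 19 that is listed as imprinted, was at 2.77, 2.75 and 2.92 in 253G1 and at -3.92, -4.49, -5.63, -5.90 and -6.55 in H1. Its difference was 8.11 (SE 0.55, adjusted p = 0.000226), and 5.66 after normexp. H1 was well above background on only 4 of 10 arrays, so the size of the fold is not well measured. The converse was seen for PEG3, a paternally expressed zinc finger gene on chromosome 19, at -6.33, -6.17 and -6.13 in 253G1 and at -1.13, -1.07, -0.82, -0.84 and -0.48 in H1. No 253G1 array was well above background and every H1 array was, so the difference of -5.34 (SE 0.17, adjusted p = 3.96e-06) is at least 21.7-fold, and the other PEG3 probe fell by 1.66 (adjusted p = 0.0165). ZIM2, which shares a promoter with PEG3, was lower in every 253G1 culture, at -4.34, -5.28 and -4.61 against -1.86, -2.03, -2.52, -2.84 and -3.26 in H1, a difference of -2.24 (SE 0.35, adjusted p = 0.00646), with an adjusted p of 0.0776 with slide as a random block.

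Of 35 imprinted genes measured, each by its brightest probe, 8 were higher (22.9%, against 5.95% of all genes) and 3 were lower (8.57%, against 7.39%), with a median of 0.25. Apart from NLRP2 and ZNF597, the higher ones differed by 0.84 or less, and they were the paternally expressed SGCE at 0.84 and PEG10 at 0.64, neighbours on chromosome 7, NDN at 0.80 and MAGEL2 at 0.78, neighbours on chromosome 15, INPP5F at 0.72, and the maternally expressed PHLDA2 at 0.83. ZNF597 differed by 1.29 and was not well above background on any array of either line. H19, a maternally expressed noncoding RNA, fell by 0.98 (adjusted p = 0.00972) and was well above background on 0 of 6 arrays of 253G1 and all 10 of H1. IGF2 at 0.86, SNRPN at 0.25, MEST at 0.18 and KCNQ1OT1 at -1.11 did not pass. MEG8 is on the list and has no named probe here. Without the 253G1 FGFC culture 7 of the 35 passed, in place of 11, and with the kind of culture as a block the adjusted p was 0.0943 for PEG10 and 0.0548 for NDN.

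The promoters of MEG3, NLRP2 and ZNF502 are shown as examples of genes whose named probe was bright in one line and at or near background in the other. They are the 250 bases before the RefSeq start in GRCh38.p14, with each CpG in capitals, at chr14:100825858-100826107, chr19:54966124-54966373 and chr3:44712410-44712659, all on the plus strand. DNA methylation was not measured.
MEG3: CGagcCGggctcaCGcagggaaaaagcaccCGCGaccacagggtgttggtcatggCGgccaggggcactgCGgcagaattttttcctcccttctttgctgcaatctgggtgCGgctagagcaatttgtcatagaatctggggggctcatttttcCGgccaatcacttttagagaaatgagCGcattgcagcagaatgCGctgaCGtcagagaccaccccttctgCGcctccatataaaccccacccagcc
NLRP2: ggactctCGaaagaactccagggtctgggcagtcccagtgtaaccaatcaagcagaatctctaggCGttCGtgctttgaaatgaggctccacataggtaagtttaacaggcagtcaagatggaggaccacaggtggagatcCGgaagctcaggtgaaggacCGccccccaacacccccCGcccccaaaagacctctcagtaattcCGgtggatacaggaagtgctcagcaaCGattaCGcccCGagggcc
ZNF502: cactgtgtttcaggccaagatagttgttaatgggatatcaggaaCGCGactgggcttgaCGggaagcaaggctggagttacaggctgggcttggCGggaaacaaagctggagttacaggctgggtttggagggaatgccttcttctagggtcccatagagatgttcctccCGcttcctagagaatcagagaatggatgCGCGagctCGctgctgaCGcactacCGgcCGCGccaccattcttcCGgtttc
The windows hold 13, 10 and 13 CpG and have an observed over expected CpG ratio of 0.656 for MEG3, 0.518 for NLRP2 and 0.697 for ZNF502, beside a median of 0.745 over 14823 gene promoters. Among other genes that fit this description and are not printed, the ratio was 1.021 for LRRC61 and 0.514 for ZNF441. No pattern is read from these examples.

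Another 4 of the 12 largest rises were of genes whose named probe was well above background on at most 1 of the 10 H1 arrays. LRRC61, a leucine-rich repeat gene on chromosome 7, was at 0.34, 0.43 and 0.30 in 253G1 and at -5.85, -6.39, -5.41, -4.04 and -7.05 in H1, a difference of 6.10 (SE 0.58, adjusted p = 0.000969) that was 3.39 after normexp. The 253G1 cultures were close to each other and the H1 cultures spread over a wide range below them. SVIL-AS1, a transcript antisense to the supervillin gene on chromosome 10, was at -0.93, -1.23 and -0.99 in 253G1 and at -6.83, -7.62, -6.53, -6.23 and -6.91 in H1, at least 29.1-fold higher with a difference of 5.78 (SE 0.29, adjusted p = 6.18e-05). BCL2L10, a BCL2 family regulator of apoptosis, was higher by 3.75 (SE 0.20, adjusted p = 0.000113), at least 10.4-fold, and C5orf63 by 3.98 (SE 0.33, adjusted p = 0.000596), at least 10.5-fold. By these probes, both were well above background on every 253G1 array and on no H1 array. C5orf63 has 4 probes, of which 2 passed as higher. The brightest was at 7.34 in 253G1 and 7.89 in H1, well above background on every array of both lines. It differed by -0.55 without passing, so C5orf63 as a whole was not at background in H1.

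SERPINB3 and SERPINB4, neighbouring serine protease inhibitors on chromosome 18, were higher by 4.24 (SE 0.49, adjusted p = 0.00213) and 4.05 (SE 0.38, adjusted p = 0.000969). SERPINB3 was at -0.64, -0.39 and 0.28 in 253G1 and at -5.43, -5.47, -3.69, -4.26 and -3.62 in H1, without overlap. The sequences of this pair are nearly identical, so their probes may not report them separately. ANXA1, a calcium-dependent phospholipid-binding protein, was at 0.49, 1.58 and 1.24 in 253G1 and at -2.24, -2.34, -1.81, -2.29 and -4.02 in H1, a difference of 3.65 (SE 0.48, adjusted p = 0.00348) with every array of both lines well above background. COX7A1, a subunit of cytochrome c oxidase known from heart and muscle, was at -0.37, 0.30 and 0.20 against -3.04, -3.23, -3.57, -4.07 and -4.83, a difference of 3.79 (SE 0.40, adjusted p = 0.00139). The calcium-binding gene S100Z was higher by 4.09 (SE 0.51, adjusted p = 0.0028). The histone gene H2BC18 was higher by 4.00 (SE 0.49, adjusted p = 0.00268) with 1 of its 3 probes, and histone H2B genes are alike enough in sequence that this probe may also report others.

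**Figure D2:**
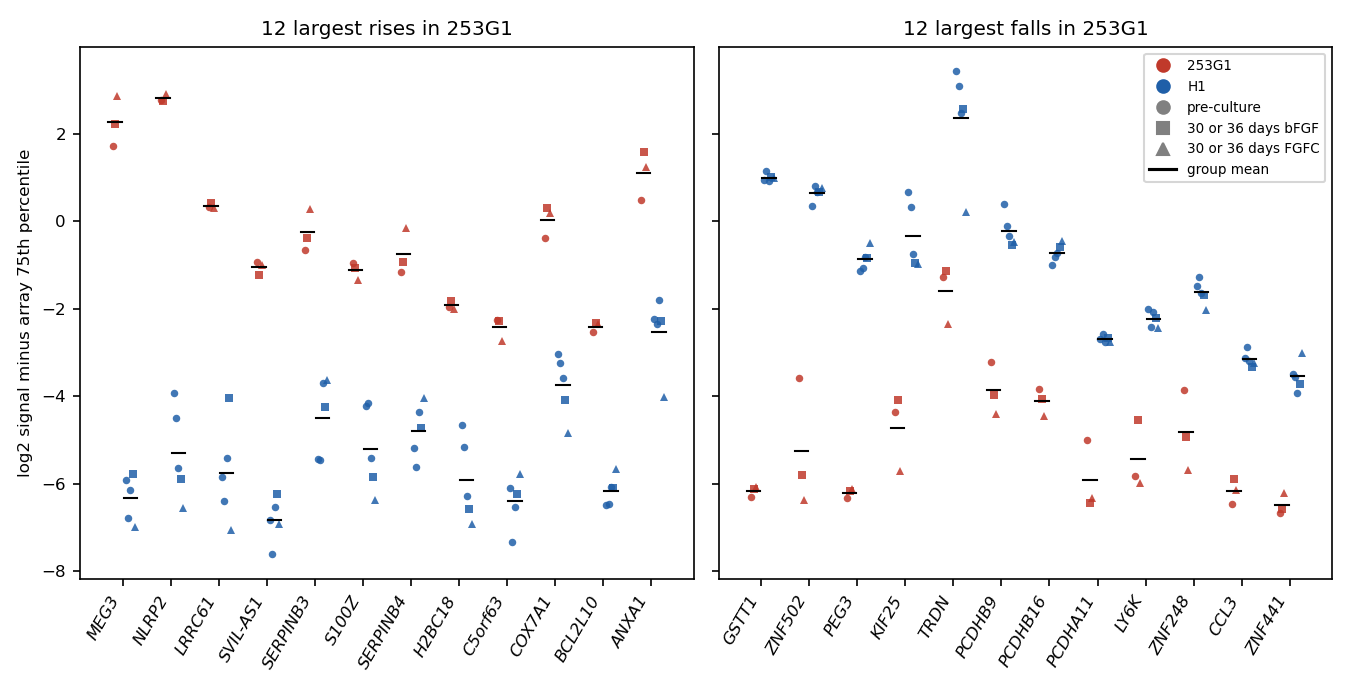
Level in each culture (log2 signal minus the array's 75th percentile) of the 12 genes with the largest rises (left) and the 12 with the largest falls (right) in 253G1. Red is 253G1 (3 cultures), blue is H1 (5 cultures), symbols give the kind of culture and bars the group means; the 2 groups do not overlap for any of the 24, which the choice of genes required.

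GSTT1, a glutathione transferase gene on chromosome 22, had the largest fall. It was at -6.29, -6.13 and -6.07 in 253G1 and at 0.95, 1.15, 0.93, 1.01 and 0.99 in H1. Each line varied little between cultures, all 6 arrays of 253G1 were not well above background, and all 10 of H1 were. The difference of -7.17 (SE 0.13, adjusted p = 8.26e-08) is at least 79.3-fold. ZNF502, a zinc finger gene on chromosome 3, was at -3.59, -5.79 and -6.38 in 253G1 and at 0.34, 0.81, 0.67, 0.68 and 0.76 in H1, a difference of -5.91 (SE 0.54, adjusted p = 0.000865). The 253G1 pre-culture was the highest of the 3 iPSC cultures, and the H1 cultures lay close together.

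KIF25, a kinesin gene on chromosome 6, was at -4.36, -4.09 and -5.71 in 253G1 and at 0.68, 0.33, -0.75, -0.95 and -0.97 in H1, at least 18.6-fold lower with a difference of -4.39 (SE 0.51, adjusted p = 0.00204). TRDN encodes triadin of the sarcoplasmic reticulum and was at -1.27, -1.14 and -2.36 in 253G1 and at 3.44, 3.11, 2.48, 2.56 and 0.23 in H1, a difference of -3.95 (SE 0.68, adjusted p = 0.00883). The H1 FGFC culture was well below the other H1 cultures for TRDN and still above 253G1. LY6K, a GPI-anchored protein gene, fell by 3.22 (SE 0.31, adjusted p = 0.00107). The chemokine gene CCL3 fell by 3.01 (SE 0.17, adjusted p = 0.000127), at least 4.43-fold, and has near-identical copies in the genome that its probe may also report. All 24 of the largest rises and falls kept an adjusted p under 0.05 in each of the 8 fits that left out 1 culture, where the highest was 0.0434, for TRDN. Their choice from the same cultures, for passing and for size, favoured this.

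Of the gene groups listed, the clustered protocadherins had the largest share of falls. Of 46 measured, 23 were lower (50.0%, against 7.39% of all genes) and 1 was higher, the median was -0.96, and 20 were 2-fold lower (43.5%, against 3.42%). In the beta cluster 12 of 15 were lower, in the gamma cluster 7 of 16 and in the alpha cluster 4 of 15. These 12 were all the bright beta genes, and the other 3, PCDHB1, PCDHB6 and PCDHB7, were well above background on 0 arrays. Of the 12, PCDHB2, PCDHB5, PCDHB11, PCDHB13, PCDHB14 and PCDHB15 were bright in both lines. The rest were bright only in H1, where they are high, so the filter favoured a fall for them. Members of a cluster are similar in sequence and lie side by side, so they are not independent measurements, and a probe may report more than 1 of them. The median of the group was -0.47 after normexp background correction, -0.94 after quantile normalization and -1.22 with only probes well above background.

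PCDHB9 was at -3.22, -3.96 and -4.40 in 253G1 and at 0.40, -0.10, -0.33, -0.54 and -0.48 in H1, a difference of -3.65 (SE 0.30, adjusted p = 0.000596). PCDHB16 was at -3.83, -4.05 and -4.46 in 253G1 and at -0.99, -0.82, -0.71, -0.59 and -0.44 in H1, a difference of -3.40 (SE 0.19, adjusted p = 0.000127). Neither gene had an iPSC culture within 2-fold of an ESC culture. PCDHB8 was at -4.65, -4.54 and -5.50 in 253G1, where 0 of 6 arrays were well above background, and at -2.16, -2.15, -2.37, -2.41 and -2.77 in H1, at least 5.36-fold lower in 253G1. The other 9 beta genes fell by 0.70 (PCDHB5) to 2.20 (PCDHB4), and PCDHB5 passed in 1 of the 8 fits that left out a culture. In the gamma cluster PCDHGB2 was at -4.84, -5.69 and -5.78 in 253G1 and at -2.76, -2.97, -3.35, -3.22 and -3.73 in H1, a difference of -2.23 (SE 0.28, adjusted p = 0.00291), while PCDHGA8 at -0.06, PCDHGA7 at -0.30 and PCDHGA12 at -0.47 were bright in both lines and did not pass.

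In the alpha cluster PCDHA7 fell by 1.06 and PCDHA13 fell by 1.37. PCDHAC2, the only protocadherin that was higher, differed by 1.07 (adjusted p = 0.0377) and was well above background on 4 of 6 arrays of 253G1 and 5 of 10 of H1, and its adjusted p was 0.063 with the kind of culture as a block. PCDHA11 was among the 12 largest falls by 1 of its 2 probes, at -5.00, -6.43 and -6.34 in 253G1 and at -2.70, -2.58, -2.75, -2.66 and -2.75 in H1, a difference of -3.24 (SE 0.31, adjusted p = 0.000969), while its brighter probe differed by -0.15 without passing.

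**Figure D3:**
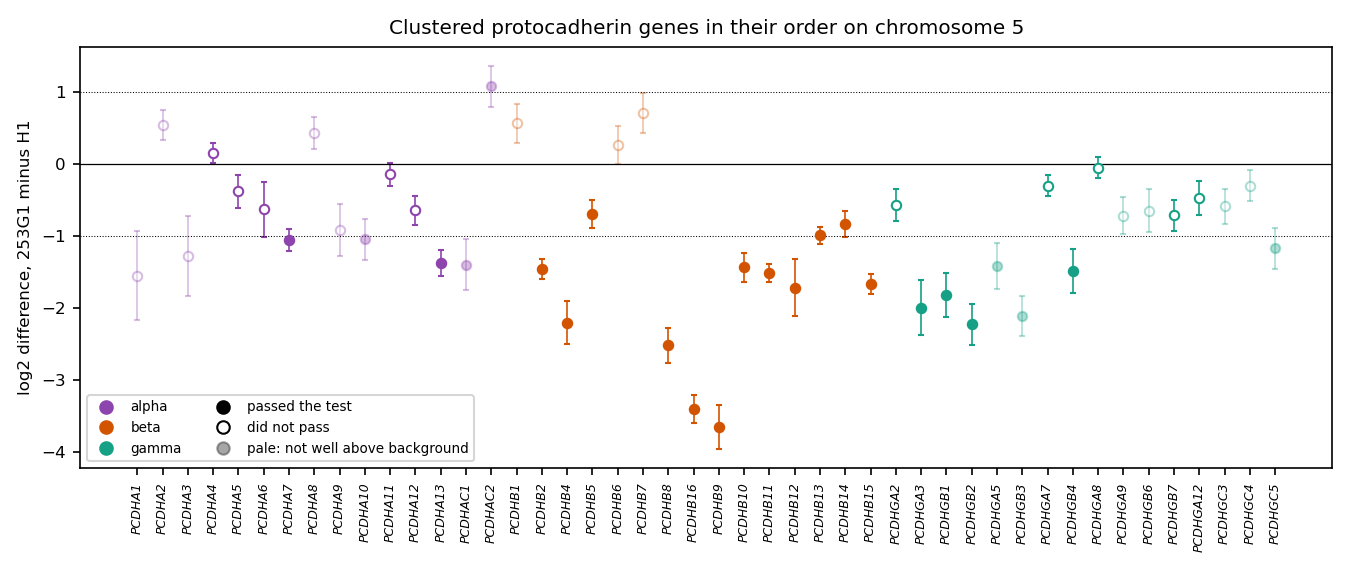
Log2 difference of 253G1 minus H1 for each measured protocadherin of the alpha, beta and gamma clusters in gene order on chromosome 5, with its SE as bars (3 against 5 cultures). Filled points passed the test and pale points were dim in both lines. All 12 bright beta genes lie below 0, but some were bright only in H1, where the filter itself favours a fall.

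Most beta genes share a promoter element that the choice of genes did not use. The 9 letters GTGGCGCTG, which hold the CGCT core of the conserved sequence element of protocadherin promoters and were chosen after the values had been seen, were searched on both strands of the 300 bases from 250 before to 50 after each RefSeq start. They were in 12 of 14 beta promoters (85.7%), 0 of 13 alpha and 0 of 20 gamma promoters, and in 159 of all 27305 promoters (0.582%). An exact search misses the same core with other letters beside it, so a count of 0 does not show that the element is absent. Of the 15 beta genes measured, 13 had a promoter in the table, and of these 10 of 11 that were lower held it and 1 of 2 that did not pass. Those 2 were well above background on 0 arrays, so they cannot be set against the 11. The windows of 7 beta genes are shown, 6 that fell and PCDHB7, which did not pass, on the plus strand of chromosome 5 in GRCh38.p14 with the 9 letters in capitals.
PCDHB9: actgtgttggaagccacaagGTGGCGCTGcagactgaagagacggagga
PCDHB16: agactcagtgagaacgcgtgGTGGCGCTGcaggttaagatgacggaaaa
PCDHB4: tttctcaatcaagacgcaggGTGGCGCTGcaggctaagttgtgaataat
PCDHB15: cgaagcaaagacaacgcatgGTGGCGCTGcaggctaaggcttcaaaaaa
PCDHB2: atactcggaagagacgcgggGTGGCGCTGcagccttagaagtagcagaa
PCDHB13: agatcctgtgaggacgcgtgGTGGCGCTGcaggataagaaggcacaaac
PCDHB7: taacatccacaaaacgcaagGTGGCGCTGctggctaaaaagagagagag
These lie at chr5:141187066-141187114 (PCDHB9), chr5:141182302-141182350 (PCDHB16), chr5:141121715-141121763 (PCDHB4), chr5:141245306-141245354 (PCDHB15), chr5:141094536-141094584 (PCDHB2), chr5:141213857-141213905 (PCDHB13) and chr5:141172558-141172606 (PCDHB7). The differences of these genes were -3.65 for PCDHB9, -3.40 for PCDHB16, -2.20 for PCDHB4, -1.67 for PCDHB15, -1.46 for PCDHB2, -0.996 for PCDHB13 and 0.70 for PCDHB7. A match is only a description of the letters, since no binding was measured.

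Zinc finger genes named ZNF, of which many encode KRAB repressors, were more often lower than higher. Of 479 measured 53 were lower (11.1%, against 7.39% of all genes) and 11 were higher (2.30%, against 5.95%), with a median of -0.10. At 2-fold the share was near that of all genes, 20 lower (4.18%, against 3.42%). On chromosome 19, 26 of 233 were lower (11.2%) and elsewhere 27 of 246 (11.0%). The number lower was 20 to 26 when any 1 of the 253G1 cultures was left out. ZNF69 was at -3.72, -3.86 and -4.51 in 253G1 and at -1.37, -1.34, -1.41, -0.99 and -1.58 in H1, a difference of -2.69 (SE 0.21, adjusted p = 0.000537). ZNF454 fell by 2.23 (SE 0.22, adjusted p = 0.00107). ZNF248 was lower with 3 of its 4 probes, the largest difference being -3.20 (SE 0.37, adjusted p = 0.00204), while its brightest probe differed by -0.67 (adjusted p = 0.496). ZNF441 was at -6.68, -6.58 and -6.22 in 253G1, well above background on 0 of 6 arrays, and at -3.49, -3.55, -3.93, -3.72 and -3.01 in H1, at least 3.4-fold lower in 253G1, and its other probe was at background in both lines.

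Neighbours of these genes were looked at after their values had been seen. On chromosome 19 the run of 15 measured genes from ZNF823 to ZNF563 had 5 that fell, namely ZNF441, ZNF69, ZNF439 by 1.73, ZNF491 by 1.05 and ZNF625 by 0.62, and 14 with a difference below 0. On chromosome 10 the run of 8 from ZNF248 to ZNF32 had 4 that fell, namely ZNF25 by 1.62, ZNF37A by 1.69, ZNF33A by 0.51 and ZNF33B by 0.68, and 7 below 0. With the kind of culture as a block ZNF625 (adjusted p = 0.0922), ZNF33A (0.108) and ZNF33B (0.0706) no longer passed. Neighbouring zinc finger genes often arose from each other, and their probes may overlap in what they report.

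Of 30 dermal fibroblast genes 5 were higher (16.7%, against 5.95%) and 0 lower, the median was 0.10, and 16 were dim in both lines. COL1A1, the main collagen chain of fibroblasts, was at 2.89, 3.64 and 3.88 in 253G1 and at 1.81, 2.15, 1.66, 1.68 and 1.24 in H1, a difference of 1.77 (SE 0.27, adjusted p = 0.00584). VIM, vimentin of mesenchymal cells, was higher by 1.18 (SE 0.20, adjusted p = 0.00919), and GREM1, a BMP antagonist, by 2.00 (SE 0.28, adjusted p = 0.00415). All 253G1 cultures were above all H1 cultures for these 3. TBX15 at 1.61 (SE 0.33, adjusted p = 0.0161) and PRRX1 at 1.11 (adjusted p = 0.0459) were near background in both lines. The collagen genes COL1A2 at 0.18, COL6A1 at 0.15, COL5A2 at 0.21 and COL5A1 at -0.43 and the surface marker THY1 at -0.02 were bright in both lines and did not pass. COL3A1, LUM, FAP and FBN1 were well above background on 0 of the 16 arrays. Whether fewer cells of a type or less RNA per cell is behind a difference cannot be told apart in such bulk samples.

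Of 15 genes listed for DNA methylation that varies between pluripotent lines, 3 were higher (20.0%, against 5.95% of all genes) and 3 lower (20.0%, against 7.39%). QNG1, the gene long known as C9orf64, was higher by 2.25 (SE 0.29, adjusted p = 0.00305), CSRP1 by 1.67 and DNAJC15 by 0.85, and RBFOX1 fell by 1.11, CAT by 1.01 and PTPRT by 0.76. CAT, which encodes catalase, passed in 3 of the 8 fits that left out a culture, RBFOX1 in 5 and PTPRT in 4. With the kind of culture as a block the adjusted p was 0.0546 for CAT and 0.0631 for RBFOX1, and after quantile normalization it was 0.131 for RBFOX1 and 0.14 for PTPRT. Of 9 genes of DNA methyltransferases, TET enzymes and their partners, only DNMT3L passed, at 1.69 near background (well above background on 1 of 6 and 0 of 10 arrays), while DNMT1 at 0.19, DNMT3A at -0.02 and TET1 at -0.32 did not. Of 5 genes linked to HERV-H, 0 passed.

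EGR1, JUN, FOSB and FOS, immediate early genes, were higher in 253G1. EGR1, a zinc finger factor that ERK induces within minutes, was at 1.73, 2.56 and 2.26 in 253G1 and at -1.36, -1.39, -1.51, -1.27 and 0.05 in H1, a difference of 3.28 (SE 0.37, adjusted p = 0.00191). The H1 FGFC culture stood above the other H1 cultures and was still below 253G1. JUN, a subunit of AP-1, was at -0.35, -0.10 and -0.11 in 253G1 and at -2.66, -2.46, -2.43, -2.43 and -2.76 in H1, a difference of 2.36 (SE 0.14, adjusted p = 0.000155). FOSB was higher by 2.30 (SE 0.41, adjusted p = 0.0104) and FOS by 1.63 (SE 0.42, adjusted p = 0.0365). FOS passed in 3 of the 8 fits that left out a culture, and the adjusted p of FOSB was 0.0605 with slide as a random block. Of 14 stress and immediate early genes 4 were higher (28.6%, against 5.95%) and 0 were lower. JUNB at 0.12, IER2 at 0.30, ATF3 at 0.25, DUSP1 at 0.70 and the heat shock gene HSPA1A at 0.39 did not pass.

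Genes that ERK induces, or that feed back on it, differed both ways. Of 17, EGR1 included, 3 were higher (17.6%, against 5.95% of all genes) and 1 was lower (5.88%, against 7.39%). IER3 was higher by 0.92 (SE 0.15, adjusted p = 0.0071) and PHLDA1 by 0.89 (SE 0.22, adjusted p = 0.0304), which passed in 4 of 8 fits. SPRY4, an inhibitor of FGF signalling, was at 2.08, 1.83 and 1.81 in 253G1 and at 2.504, 2.75, 2.502, 2.39 and 2.42 in H1, a difference of -0.61 (SE 0.14, adjusted p = 0.025) that passed in 5 of 8 fits. With the kind of culture as a block the adjusted p was 0.0703 for PHLDA1 and 0.0651 for SPRY4. The ERK phosphatase gene DUSP6 at -0.64, ETV5 at -0.52, ETV4 at -0.14, SPRY2 at -0.03 and CCND1 at 0.17 did not pass.

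In the TGF-beta and Nodal pathway 4 of 16 genes were higher (25%, against 5.95% of all genes) and 1 was lower (6.25%, against 7.39%), with a median of 0.52. Among the higher genes, besides the ligand NODAL, was the target ID1, an HLH inhibitor that BMP signals also induce, at 1.41 (SE 0.31, adjusted p = 0.0207). CER1, a secreted Nodal antagonist, differed by 1.17 near background. The type I receptor gene ACVR1B was at -4.36, -4.94 and -4.49 in 253G1 and at -2.78, -3.24, -3.14, -3.48 and -2.98 in H1, and fell by 1.47 (SE 0.20, adjusted p = 0.00397). The Nodal inhibitors LEFTY1 at 0.94 and LEFTY2 at 0.32 did not pass, nor did SMAD7 at 0.60 and SKIL at -0.07.

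Of 14 mesendoderm and 14 neuroectoderm genes, 4 of each were bright. In mesendoderm 4 were higher (28.6%, against 5.95%) and 0 lower. AFP, alpha-fetoprotein of yolk sac and fetal liver, was at 2.02, 1.95 and 2.36 in 253G1 and at -0.79, -0.64, 0.72, 0.65 and 0.87 in H1, a difference of 1.95 (SE 0.42, adjusted p = 0.0199). FOXA2, an endoderm factor, was at -1.05, -2.56 and -1.61 in 253G1 and at -5.20, -5.17, -2.98, -3.85 and -2.99 in H1, a difference of 2.30 (SE 0.62, adjusted p = 0.0414), and it passed in 2 of the 8 fits that left out a culture. EOMES and TBXT passed at 0.91 and 0.81 but were near background, and after normexp their adjusted p was 0.624 and 0.435. In neuroectoderm 2 were lower, the eye-field genes SIX6 at -2.60 (SE 0.66, adjusted p = 0.0339) and SIX3 at -1.32 (SE 0.31, adjusted p = 0.025), which passed in 4 and 5 of the 8 fits, and PAX6 at 0.26 and SOX1 at 0.53 were near background. Of the 14 differentiation markers that the study used, 1 passed, TBXT (7.14%, against 5.95% of all genes), and in only 4 of the 8 fits. With the kind of culture as a block the adjusted p was 0.0651 for TBXT, 0.0866 for FOXA2 and 0.0755 for SIX6, and after quantile normalization it was 0.098 for TBXT, 0.0532 for FOXA2, 0.0644 for SIX6 and 0.0933 for SIX3.

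Among 12 genes of the naive state 2 were higher (16.7%, against 5.95% of all genes) and 1 was lower (8.33%, against 7.39%). SUSD2, a surface marker of naive cells, was at -3.73, -2.85 and -3.15 in 253G1 and at -0.52, -0.37, -0.87, -0.85 and -1.31 in H1, a difference of -2.46 (SE 0.26, adjusted p = 0.00159), while another of its probes differed by 0.61. KLF2 at 1.68 (SE 0.23, adjusted p = 0.00385) and TBX3 were near background, and KLF17 at -0.77, DPPA5 at -0.43 and TFCP2L1 at 0.29 did not pass. Of 38 HOX genes 2 were well above background, and HOXA9 was higher by 0.65 (SE 0.15, adjusted p = 0.0268). Of 9 housekeeping genes B2M, the light chain of HLA class I, was higher by 1.05 (SE 0.13, adjusted p = 0.00291), while ACTB at -0.02, GAPDH at -0.04 and RPLP0 at 0.17 did not pass.

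**Figure D4:**
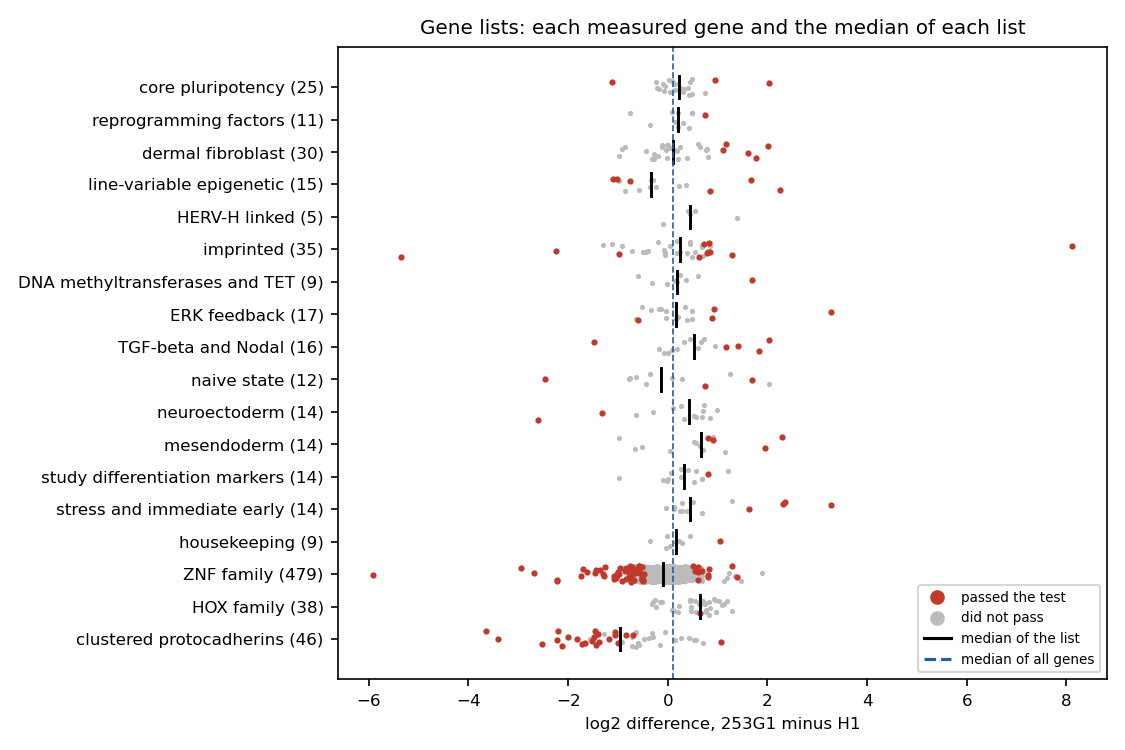
Log2 difference of 253G1 minus H1 of every measured gene of 18 lists (number of genes in brackets), 1 point for each gene by its brightest probe. Red points passed the test, black bars are list medians and the dashed line is the median of all genes at 0.11; the clustered protocadherins at -0.96 lie lowest.

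The 3 kinds of culture each allowed a comparison of like with like, without replicates. At 2-fold, 6630 probes (16.2%) differed between the 253G1 pre-culture and the mean of the H1 pre-cultures, 5306 (13.0%) between the bFGF cultures and 5569 (13.6%) between the FGFC cultures. In 253G1 2108 of them were higher and 4522 lower in the pre-culture, 2458 and 2848 with bFGF, and 2831 and 2738 with FGFC. With only probes well above background the lower ones outnumbered the higher in each kind, at 728 higher and 2468 lower, 985 and 1348, and 921 and 1896. After normexp they were 394 and 613, 438 and 522, and 522 and 325, so the direction of the FGFC split depends on the setting. Of the 3218 probes that passed the test with a 2-fold difference, 1257 were 2-fold in the same direction in all 3 kinds. All 24 of the largest rises and falls were, the smallest value being 2.32, for PCDHA11 in the pre-culture. For these 24 the choice of genes had fixed the direction and favoured the size. Days and passages differ between the lines in the long cultures, 36 days at passage 52 against 30 days at passage 58.

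The series holds another iPSC line and another ESC line, 201B7 and KhES-1, both grown on feeder cells, with FGF at 10 ng/mL and 5 ng/mL, and sharing no culture with the lines above. With the same test 7949 of 40838 probes (19.5%) passed between them, 6208 (15.2%) higher and 1741 (4.26%) lower in 201B7. This count was 343 after normexp (253 higher and 90 lower) and 3183 after quantile normalization (1559 higher and 1624 lower), and calls of single genes in this pair, given next, were not repeated under those settings. The difference between the 2 iPSC minus ESC contrasts, tested in 1 fit over the 14 cultures, passed for 13285 probes (32.5%), or 12331 after normexp and 10437 after quantile normalization, and for 29.9% of genes. Of the 298 bright genes that were 2-fold higher in 253G1 than in H1, 30 (10.1%) were called higher with a 2-fold difference in 201B7 than in KhES-1 and 30 (10.1%) were called lower. Of the 389 that were lower, 33 (8.48%) were called lower and 62 (15.9%) higher. Over all genes, dim ones included, 7.11% were called 2-fold higher and 2.05% 2-fold lower in 201B7. The shares to set beside these are also those with dim genes. Of the 488 genes higher in 253G1, 44 (9.02%) were called higher and 42 (8.61%) lower in 201B7. Of the 656 lower in 253G1, 43 (6.55%) were called lower and 126 (19.2%) higher. The share over all bright genes was not counted.

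GSTT1 was low in both iPSC lines and high in both ESC lines, at -7.25 to -6.12 in 201B7 and at 0.75 to 1.20 in KhES-1, a difference of -7.88 (adjusted p = 0.000316). Whether 201B7 and 253G1 come from different donors was not examined, so a likeness of these lines may not be independent of donor. TRDN differed by -4.38 (adjusted p = 0.000316), CCL3 by -4.38 (adjusted p = 0.00141) and ZNF502 by -2.42 (adjusted p = 0.00306) between 201B7 and KhES-1. Of the 12 largest falls, 9 passed as lower in 201B7 too, which were these 4 with PCDHB9, PCDHB16, PCDHA11, LY6K and ZNF441. Of the 12 largest rises 2 passed as higher in 201B7, S100Z at 1.39 (adjusted p = 0.019) and COX7A1 at 1.09 (adjusted p = 0.0482), and 3 passed as lower, LRRC61 at -0.84 (adjusted p = 0.0327), SVIL-AS1 at -0.97 (adjusted p = 0.0235) and BCL2L10 at -0.78 (adjusted p = 0.0481). For all 12 rises every culture of 201B7 and of KhES-1 lay above every H1 culture in E8, and for all 12 falls every culture of 201B7, and for 6 every culture of KhES-1, lay below. These genes were chosen for H1 lying apart from 253G1. The share of all genes that lie apart in this way was not counted, so these counts cannot be read as particular to them. MEG3 was at 2.01 to 2.78 in 201B7 and at 0.56 to 2.85 in KhES-1, near the 253G1 level in both. NLRP2 was likewise at 2.41 to 2.75 and 1.73 to 2.32, and its contrasts differed by 7.64 (adjusted p = 3.05e-05). PEG3 was at -7.27 to -6.48 in 201B7 and at -7.71 to -7.55 in KhES-1, where it was well above background on 0 of 6 arrays each, as in 253G1.

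These 4 immediate early genes were lower in 201B7 than in KhES-1. EGR1 differed by -2.90 (adjusted p = 0.00235), FOS by -4.70 (adjusted p = 0.000316), FOSB by -3.90 (adjusted p = 0.00306) and JUN by -1.32 (adjusted p = 0.0269) between 201B7 and KhES-1, and the contrasts differed by 6.18 (adjusted p = 1.46e-05) for EGR1 and 6.33 (adjusted p = 2.13e-05) for FOS. Of the 15 beta protocadherins 9 were lower in 201B7 than in KhES-1 and 0 were higher, with a median of -1.16, while in the gamma cluster 0 were lower and 2 higher. Of all genes 6.2% were lower and 9.9% were higher in 201B7 by this test. For PCDHB4, which differed by -2.20 between 253G1 and H1, the difference in this pair was 0.34 (adjusted p = 0.178).

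H1 was also grown in medium conditioned by mouse embryonic fibroblasts with 5 ng/mL FGF, in 3 cultures that were not part of the ESC group. MEG3 stayed at -6.90 to -6.67 and NLRP2 at -4.33 to -2.79 there, below every 253G1 culture. At least 1 of these cultures reached the 253G1 range for 5 of the 12 largest rises, SERPINB3, SERPINB4, S100Z, COX7A1 and ANXA1. ANXA1 was at 4.29 to 5.19 in conditioned medium, above the 253G1 cultures in E8. Of the 12 largest falls this held for PEG3, which ranged from -7.02 to -1.90 in these cultures, and GSTT1 stayed at 0.36 to 0.46.

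**Figure D5:**
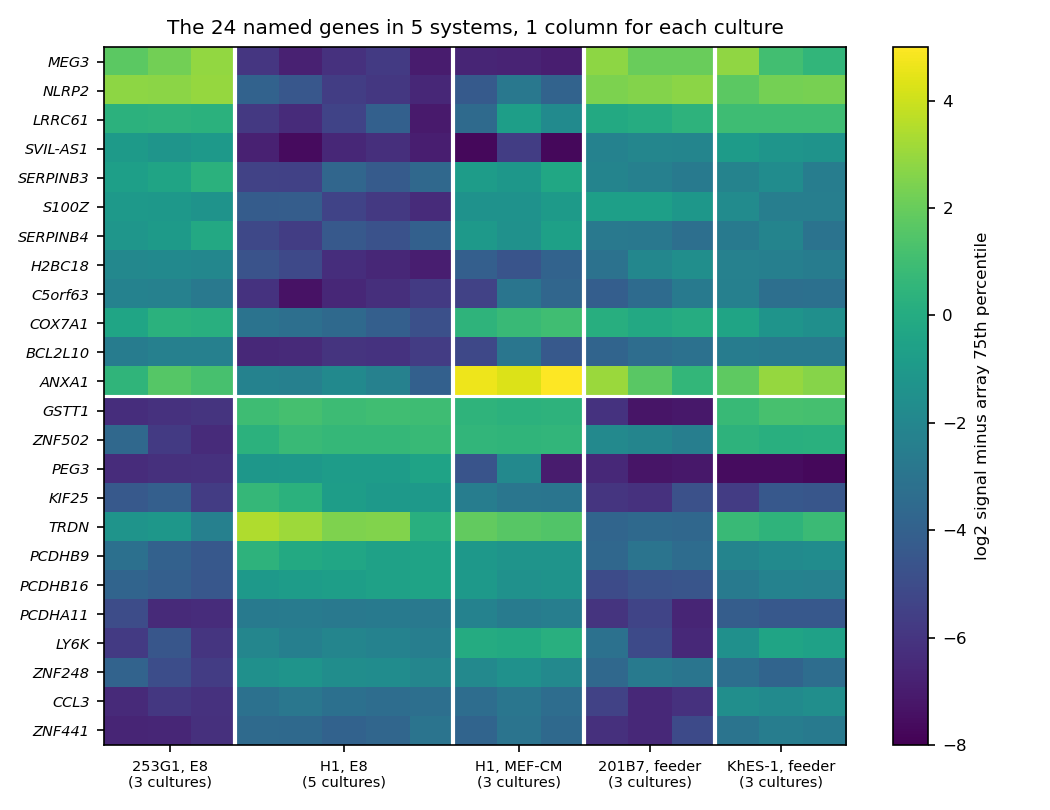
Level (colour, log2 signal minus the array's 75th percentile) of the 24 genes with the largest rises (upper 12 rows) and falls (lower 12 rows) in 253G1 against H1, 1 column for each of 17 cultures. Within a system of 3 cultures the order is pre-culture, bFGF and FGFC, and for H1 in E8 the 3 pre-cultures come first; all 12 rises are darker in H1 in E8 than in 253G1, 201B7 and KhES-1, and GSTT1 is dark in both iPSC lines.

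By chromosome, the median log2 difference over genes ranged from -0.003 on chromosome 22 to 0.229 on chromosome 18. After normexp background correction the median of chromosome 18 was 0.015. The share of genes that passed with a 2-fold difference was 10.0% on chromosome 21 (26 of 259, of which 21 were lower) and 9.56% on chromosome 5 (85 of 889, of which 55 were lower), against 5.96% of all genes. Chromosome 5 holds the clustered protocadherins. A comparison of promoter base composition was void, since only 215 of the 298 bright genes called higher and 263 of the 389 called lower had a promoter in the table.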

How the data were processed

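RNA of 27 cultures was measured on 54 1-colour arrays, of which 16 (3 cultures of 253G1, 5 of H1) were compared. The authors deposited scanner output of Agilent Feature Extraction 10.7.3.1 (version per the submitters' processing notes), in which the signal intensity of a spot is background-subtracted, linear and not scaled between arrays. The deposited series table holds the same signal intensities. The deposited median signal and background intensities are raw values and served for normexp only, and the deposited outlier, saturation and well-above-background marks are yes or no values.

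Groups were taken from the sample records. Control spots and outlier spots were left out. Signals under 1 were set to 1, the log2 signals of the spots of each probe were averaged, and the array's 75th percentile, which the study's methods name, was subtracted. A probe was called well above background on an array if a share of 0.5 or more of its spots was so marked. Of 42405 probes, 25715 were named through RefSeq (GRCh38.p14), 908 through the paper's supplementary tables and 15782 not at all. X and Y probes (1567) were left out, and 5 tested probes lacked a culture. Probes of unknown chromosome (6768) were kept in the test and not named. Array number and background, rather than read depth, limit the precision.

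Duplicate arrays were averaged, except in the fit with slide as a random block. That fit took the 16 arrays singly and had no term for culture. Duplicate arrays of a culture entered it as separate samples, so its count and adjusted p are not like those of the other fits. limma 3.58.1 in R 4.3.3 (lmFit, eBayes) was run on 40838 probes without covariates, with Benjamini-Hochberg adjustment over all of them and a threshold of 0.05. All adjusted p are limma's and two-sided. The study's methods name a 2-fold rule and no test. Gene lists used the probe with the highest mean over the 16 arrays. The 12 largest rises and 12 largest falls are among probes that passed, with a symbol and a known autosome, lines that do not overlap, and every array of the higher line well above background; these came with up to 4 members of each of 18 lists, by size, and 8 pluripotency and reprogramming genes whatever their value. Other list members and genomic neighbours are named as examples. The members and lists were chosen with earlier results of these data known. On simulated data with 200 changed probes the fit found 69.0% of 4-fold and 31.0% of 2-fold changes. Alternatives were normexp, quantile normalization, filters and floors on dim probes, single arrays, slide and kind of culture as blocks, all 27 cultures in the fit, X and Y probes kept, only H1 pre-cultures and leaving out each culture. Python 3.11.15, numpy 2.4.6, pandas 2.3.3, scipy 1.17.1 and matplotlib 3.10.9 were used.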

Additional observations from a re-analysis of the deposited data

Results flagged for a closer look

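Within the 5 H1 cultures, single cultures stood apart from the other 4 for 4 of the genes named. The H1 FGFC culture was low for ANXA1, at -4.02, with a gap to its neighbour of 0.757 of the whole range, and high for EGR1, at 0.051, with a gap of 0.85. The second H1 pre-culture was low for TBX15, at -7.02 (gap 0.737), and for DNMT3L, at -7.20 (gap 0.778), neither of which was well above background in H1. Chance gives about 1 such flag in 20 groups, and 71 genes were screened, so 4 flags are near what chance alone gives. The cause was not tested.

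The difference between 253G1 and H1 was not the difference between 201B7 and KhES-1 for 49 of the 71 genes named by rule. This is limma's test of the difference between the 2 contrasts in 1 fit over 14 cultures. Over all genes 29.9% passed it. Most of the 71 were chosen by their difference between 253G1 and H1, which is part of the contrast, so a high share was favoured in advance. Medium, feeder cells and FGF dose differ between the pairs as well as the lines, so their parts cannot be told apart. For 30 genes 253G1 minus H1 was above 201B7 minus KhES-1. The differences were 7.83 for MEG3, 7.64 for NLRP2, 6.94 for LRRC61, 6.74 for SVIL-AS1, 6.33 for FOS, 6.20 for FOSB, 6.18 for EGR1 and 4.53 for BCL2L10. They were 4.496 for SERPINB3, 4.47 for C5orf63, 4.35 for SERPINB4, 4.33 for ANXA1, 4.28 for QNG1, 3.83 for H2BC18, 3.69 for JUN and 3.17 for KLF2. For the next genes they were 3.12 for GREM1, 2.70 for COX7A1, 2.70 for S100Z, 2.67 for NODAL, 2.28 for CSRP1, 2.02 for ZNF597, 1.56 for PHLDA1 and 1.52 for ID1. Smaller values were 1.37 for CCL3, 1.09 for FGF2, 1.08 for MYC, 1.03 for IER3, 0.80 for SOX2 and 0.71 for NANOG. For the other 19 genes it was below. On this side the differences were -5.99 for PEG3, -5.58 for CAT, -5.21 for TBX15, -3.65 for KIF25, -3.63 for ZNF248, -3.49 for ZNF502, -3.46 for ZIM2 and -3.30 for SIX6. The next ones were -2.67 for ZNF69, -2.54 for ZNF454, -2.17 for PCDHB9, -2.12 for KLF4, -1.94 for PCDHGB2, -1.85 for SIX3, -1.75 for ACVR1B and -1.56 for PCDHA11. The rest were -1.46 for SUSD2, -1.10 for TERT and -1.03 for PCDHB16. The adjusted p ran from 1.75e-07 to 0.0471.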

How the results depend on the processing

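The count of probes that passed between 253G1 and H1 was 6261, and it was 3997 with the first array of each culture only, 3594 with the kind of culture as an additive block, 7651 with slide as a random block (consensus correlation 0.404) and 2149 to 7036 when 1 culture was left out. The fit with slide took single arrays, with duplicates as separate samples, so its 7651 cannot be set beside the 6261 of averaged cultures. The number of probes with a 2-fold difference of means was 4857, and it was 724 after normexp background correction with an offset of 50, 2052 with only probes well above background, 3225 with signals raised to a floor and 4208 to 5673 when 1 culture was left out. These 3 settings draw low signals together or leave them out by their construction. In matched cultures the 2-fold counts of 6630 (pre-cultures), 5306 (bFGF) and 5569 (FGFC) became 1007, 960 and 847 after normexp and 3196, 2333 and 2817 with only probes well above background. Between 201B7 and KhES-1 the count of 7949 became 343 after normexp and 3183 after quantile normalization, for which the cause was not tested. The median of chromosome 18 went from 0.229 to 0.015 after normexp. The median difference over all probes was 0.03, and it was -0.09 after normexp, 0.015 after quantile normalization and 0.11 with that floor, which is the lowest signal that counts as well above background.

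All 24 of the largest rises and falls kept their direction and passed under every alternative run (456 values, 1 for each gene and alternative). They were chosen from the same cultures for passing, for no overlap and for size, so this was favoured in advance. Over all genes named, 1194 of 1337 values kept direction and call, 126 no longer passed, 8 came to pass and 9 changed sign, which were of genes that did not pass. The difference of NANOG was 0.019 against the H1 pre-cultures only. That of KLF4 was -0.007 after normexp, -0.108 with the first array only, -0.045 against the H1 pre-cultures only, and -0.06 to 0.315 when 1 culture was left out, with -0.06 and -0.003 without the 253G1 bFGF or FGFC culture. That of CRIPTO was -0.088 after quantile normalization, -0.018 with all 27 cultures in the fit and -0.008 to 0.159 when 1 culture was left out, being below 0 without the second H1 pre-culture. Of zinc finger genes 33 passed with the kind of culture as a block, in place of 64. Changes of genes near background are least well measured, since 1510 of the 3218 probes that passed with a 2-fold difference were dim in both lines. No paired analysis was possible because the 253G1 and H1 cultures share only experiment number 1. The kind of culture, which both lines have, served as a block in its place and gave the 3594 probes above.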
